A study of Mus musculus with 11 samples.

Results

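Pdcd11 encodes the mammalian homolog of yeast Rrp5, a large RNA-binding protein of the nucleolus. It was examined together with 9 genes of nucleolar ribosome assembly, Nop56, Nop58, Fbl, Ncl, Npm1, Utp20, Heatr1, Wdr43 and Rrp12. These 10 genes were taken by symbol from the 56691 genes of the deposited count table. Pdcd11 was chosen because its level was higher in both mutant genotypes than in WT/WT libraries, so its own differences from WT/WT are given as a description with no test. The other 9 were chosen for their place in the same pathway, to ask whether they moved with Pdcd11.

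The libraries are RNA sequencing of thymic epithelial cells from NOD mice aged 4 to 8 weeks that differ in the Aire gene, which drives the expression of tissue-restricted antigens in medullary thymic epithelium. The genotypes profiled were R249C/R249C (3 libraries), WT/R249C (5 libraries) and WT/WT (3 libraries), where R249C is an amino acid change in the SAND domain of Aire. After depletion of CD45-positive cells, cells positive for EpCAM and negative for CD45 were sorted, libraries were made from low-input RNA, and no treatment is labelled. All R249C/R249C libraries, WT/R249C replicates 1 to 3 and WT/WT replicate 1 belong to batch A. WT/R249C replicates 4 and 5 and WT/WT replicates 2 and 3 belong to batch B. NOD is the strain background of every group, so controls carry it too. WT/R249C replicates 4 and 5 are WT/R249C by title and R249C/R249C by the genotype field of their labels, and they were grouped by title. How many mice stand behind a library is not stated, so p-values measure the spread between libraries.

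Ribosomes are built in the nucleolus, where RNA polymerase I transcribes a long precursor that is modified, folded and cut while assembly proteins bind it. Box C/D small nucleolar ribonucleoproteins (snoRNPs) guide methylation of the precursor, and the U3 snoRNP with many Utp proteins forms the small-subunit processome, in which the small-subunit rRNA is released. In yeast, Rrp5 is needed for cuts that free the small-subunit RNA and for a cut on the large-subunit side, and medullary thymic epithelium is known for transcribing an unusually wide range of genes.

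Library totals ran from 60560348 to 182319976 counts, and levels are given as CPM, the counts scaled to a common library total. Every member had at least 525 counts in every library, so all 10 passed the filter on low counts in each comparison. The epithelial markers Epcam and Krt8 were high throughout, with means of 420 ± 57.9 and 929 ± 199.9 CPM in R249C/R249C libraries, 488 ± 34.6 and 1088 ± 273 CPM in WT/R249C libraries, and 399 ± 44.3 and 744 ± 341 CPM in WT/WT libraries (SD, n = 3, 5 and 3). Aire transcripts averaged 603 ± 272 CPM in R249C/R249C libraries, 518 ± 228 CPM in WT/R249C libraries and 490 ± 244 CPM in WT/WT libraries (SD), which does not check the genotype, since the variant does not remove the transcript. In bulk RNA, fewer cells of a type and less RNA per cell cannot be told apart.

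The promoters of Pdcd11, Nop56 and Ncl are shown because these genes behaved differently from library to library: Pdcd11 was the gene chosen for its difference from WT/WT, Nop56 followed Fbl, and Ncl followed Npm1. Each sequence is the 250 bases before the annotated start in RefSeq for build GRCm38.p6, on the gene's strand, 5′ to 3′, with matches to the motifs searched in capitals. They lie at chr19:47090516-47090765 (plus strand) for Pdcd11, chr2:130274162-130274411 (plus strand) for Nop56 and chr1:86359456-86359705 (minus strand) for Ncl.
Pdcd11: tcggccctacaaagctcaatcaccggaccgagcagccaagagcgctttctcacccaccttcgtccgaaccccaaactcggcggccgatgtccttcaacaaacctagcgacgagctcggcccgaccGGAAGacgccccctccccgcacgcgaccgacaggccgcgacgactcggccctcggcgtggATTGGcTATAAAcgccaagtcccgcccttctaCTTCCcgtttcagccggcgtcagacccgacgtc
Nop56: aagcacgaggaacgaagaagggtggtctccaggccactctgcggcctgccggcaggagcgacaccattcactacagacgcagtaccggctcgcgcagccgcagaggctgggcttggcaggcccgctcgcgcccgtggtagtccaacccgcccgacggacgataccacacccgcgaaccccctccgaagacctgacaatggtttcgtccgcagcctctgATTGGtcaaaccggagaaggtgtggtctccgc
Ncl: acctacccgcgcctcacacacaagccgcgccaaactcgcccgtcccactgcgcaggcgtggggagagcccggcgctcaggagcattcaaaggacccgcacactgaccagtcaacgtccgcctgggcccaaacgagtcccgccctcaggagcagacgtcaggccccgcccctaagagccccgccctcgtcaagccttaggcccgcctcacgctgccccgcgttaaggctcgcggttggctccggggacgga
The motifs were CACGTG (the E-box bound by Myc with Max), GGAAG (the core of Ets sites), CCAAT and TATAAA, each on both strands. Their letters do not overlap among the matches shown. The Pdcd11 window held GGAAG, the reverse complement of GGAAG, the reverse complement of CCAAT, and TATAAA. Of these, the CCAAT match began 65 bases and the TATAAA match 59 bases before the start. The Nop56 window held a CCAAT match 32 bases before the start, and the Ncl window held none of the 4. Promoters were found for 7 of the 10 members, those of Fbl, Npm1 and Rrp12 not being in the table. CACGTG occurred in 0 of the 7, against 6.02% of all 32851 promoters of this length. GGAAG occurred in 5 of 7 (64.1% of all), CCAAT in 3 of 7 (33.8% of all), and TATAAA in that of Pdcd11 alone (12.4% of all). The 3 windows shown were rich in G and C, at 64.8% for Pdcd11, 65.2% for Nop56 and 69.6% for Ncl. A match is a run of letters and not a shown binding site.

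Pdcd11 had 29.8, 24.6 and 25.1 CPM in the R249C/R249C libraries. It had 16.6, 19.3, 26.3, 31.2 and 35.7 CPM in WT/R249C replicates 1 to 5, and 4.97, 16.9 and 18.3 CPM in WT/WT replicates 1 to 3. Every R249C/R249C library lay above every WT/WT library, as was so for 3.42% of the 26980 genes tested, while the lowest WT/R249C library lay below the higher WT/WT libraries. Group means were 26.5 ± 2.87 CPM in R249C/R249C, 25.8 ± 7.99 CPM in WT/R249C and 13.4 ± 7.34 CPM in WT/WT libraries (SD, n = 3, 5 and 3). With batch as a term, the fitted log2 fold change was 1.93 in R249C/R249C (SE 0.38, 95% interval 1.08 to 2.78) and 1.38 in WT/R249C (SE 0.30, 0.71 to 2.05), each relative to WT/WT. These values chose the gene, and the 2 comparisons share the WT/WT libraries.

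Batch and genotype overlap in part for Pdcd11. Within batch A, the 3 R249C/R249C and 3 WT/R249C libraries ran from 16.6 to 29.8 CPM, against 4.97 CPM in the only WT/WT library. Within batch B, WT/R249C replicates 4 and 5 had 31.2 and 35.7 CPM, against 16.9 and 18.3 CPM in WT/WT replicates 2 and 3. Both WT/R249C libraries of batch B are those with contradictory labels, and they held the highest Pdcd11 of all 11. The log2 fold change of WT/R249C against WT/WT was 2.00 within batch A and 0.97 within batch B, and that of R249C/R249C against WT/WT was 2.42 within batch A, where a lone WT/WT library is assumed to vary like the other groups. Batch B holds no R249C/R249C library. Much of the size rested on WT/WT replicate 1: without it the log2 fold change was 1.43 for R249C/R249C and 0.97 for WT/R249C against WT/WT. Batch A then holds no WT/WT library, so R249C/R249C meets WT/WT only through WT/R249C, whose batch B libraries are the contested ones. The same goes for every R249C/R249C value against WT/WT given below without WT/WT replicate 1.

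Between the mutant genotypes, a contrast that played no part in choosing the gene, Pdcd11 was not distinguishable. The 3 R249C/R249C libraries at 24.6 to 29.8 CPM overlapped WT/R249C replicates 1 to 3 of the same batch at 16.6 to 26.3 CPM. The log2 fold change was 0.41 (95% interval -0.31 to 1.13, edgeR quasi-likelihood test, adjusted p = 1.00). The interval holds 0 and values above 1, and 0% of the 23695 genes tested passed in this comparison.

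**Figure D1:**
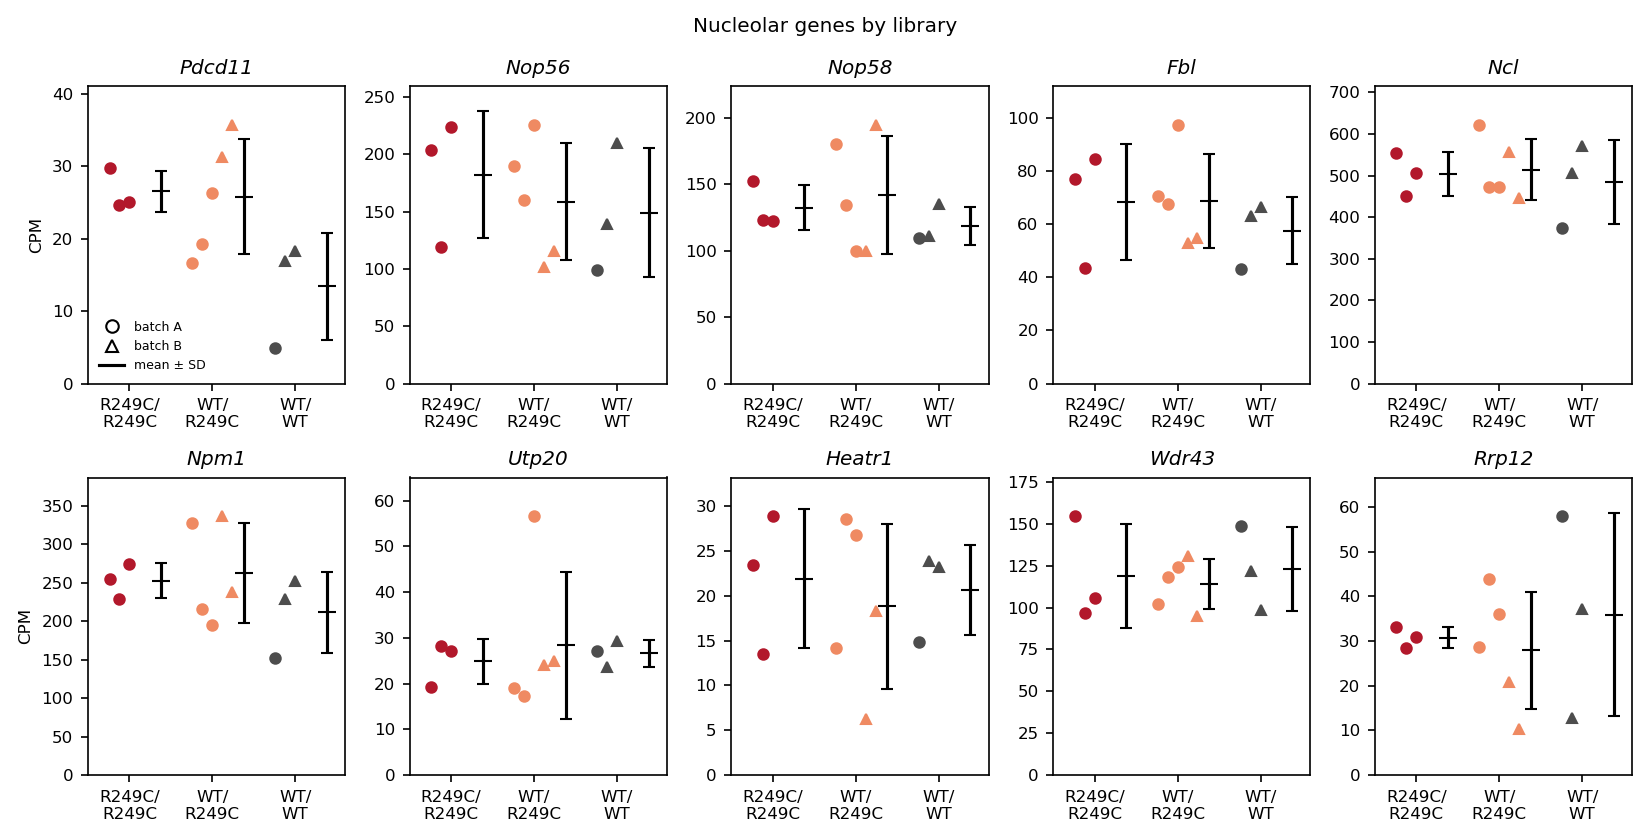
CPM of the 10 nucleolar genes in each library, by genotype; circles are batch A, triangles are batch B, and bars are the mean ± SD of a genotype. For Pdcd11 the R249C/R249C libraries, at 24.6 to 29.8 CPM, all lie above the WT/WT libraries, the lowest of which is at 4.97 CPM, while in the other 9 panels the genotypes overlap.

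Nop56 and Nop58 are paired scaffold proteins of the box C/D snoRNP and Fbl (fibrillarin) is its methyltransferase. Nop56 had 203, 119 and 224 CPM in R249C/R249C libraries, 189, 160.3, 226, 102 and 116 CPM in WT/R249C libraries, and 98.9, 139 and 210.0 CPM in WT/WT libraries. Each genotype thus held a low and a high library. Fbl had 76.9, 43.6 and 84.4 CPM in R249C/R249C libraries, 70.8, 67.5, 97.4, 52.8 and 55.0 CPM in WT/R249C libraries, and 43.0, 63.1 and 66.6 CPM in WT/WT libraries. Its high and low libraries were largely those of Nop56. Nop58 had 152, 123 and 122 CPM in R249C/R249C libraries, 181, 134, 99.9, 100.2 and 195 CPM in WT/R249C libraries, and 109.7, 111 and 135 CPM in WT/WT libraries. It was highest in WT/R249C replicates 1 and 5, libraries in which Nop56 and Fbl were not at their highest.

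None of these 3 genes passed the adjusted threshold in edgeR in any comparison, and 0% of all genes did. Against WT/WT, the log2 fold changes of R249C/R249C libraries were 0.13 for Nop56 (95% interval -0.92 to 1.17), 0.27 for Nop58 (-0.52 to 1.06) and 0.18 for Fbl (-0.66 to 1.02). Those of WT/R249C against WT/WT were -0.04 for Nop56 (-0.86 to 0.79), 0.30 for Nop58 (-0.33 to 0.93) and 0.19 for Fbl (-0.48 to 0.86). All adjusted p were 1.00 (edgeR), and each interval holds 0. For Nop56 the sign depended on the batch, at 0.91 within batch A and -0.63 within batch B for WT/R249C against WT/WT. Fbl went the same way, at 0.82 within batch A and -0.23 within batch B.

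Ncl (nucleolin) and Npm1 (nucleophosmin) are abundant nucleolar proteins that bind rRNA precursors and ribosomal subunits. Ncl had 555, 450.1 and 506 CPM in R249C/R249C libraries, 622, 473, 472, 557 and 447 CPM in WT/R249C libraries, and 375, 506 and 571 CPM in WT/WT libraries. Its lowest library was WT/WT replicate 1, and the others overlapped fully. Npm1 had 255, 229 and 274 CPM in R249C/R249C libraries, 327, 216, 195, 336 and 238 CPM in WT/R249C libraries, and 153, 229 and 252 CPM in WT/WT libraries. Its lowest value was also in WT/WT replicate 1. Npm1 had the highest fitted difference among the 9, with log2 fold changes of 0.57 (95% interval -0.11 to 1.24) for R249C/R249C and 0.45 (-0.09 to 0.99) for WT/R249C against WT/WT, both with an adjusted p of 1.00 (edgeR). For Ncl they were 0.20 (-0.35 to 0.76) and 0.15 (-0.29 to 0.59). By edgeR 0% of all genes passed in either comparison. Without WT/WT replicate 1 those of Ncl were -0.02 and -0.05, and those of Npm1 were 0.41 and 0.30. Npm1 has 8 near-identical pseudogenes in the annotation, and their summed counts reached 19.9% of those of Npm1, so its level is uncertain where reads were split. For Nop56 the 5 copies reached 7.91%, for Fbl the 2 copies 2.52%, and for Ncl the single copy 0.016%.

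Utp20, Heatr1 (the homolog of yeast Utp10) and Wdr43 (the homolog of yeast Utp5) belong to the small-subunit processome, and Rrp12 acts later, in maturation and export of the small subunit. Utp20 had 19.2, 28.3 and 27.2 CPM in R249C/R249C libraries, 19.05, 17.4, 56.6, 24.1 and 24.9 CPM in WT/R249C libraries, and 27.1, 23.5 and 29.4 CPM in WT/WT libraries. Apart from WT/R249C replicate 3, the library of least depth, it stayed between 17.4 and 29.4 CPM. Heatr1 had 23.4, 13.5 and 28.9 CPM in R249C/R249C libraries, 14.2, 28.6, 26.8, 6.23 and 18.3 CPM in WT/R249C libraries, and 14.9, 23.9 and 23.2 CPM in WT/WT libraries. Its lowest library was WT/R249C replicate 4, where Pdcd11 was among the highest. Wdr43 had 155, 96.6 and 106 CPM in R249C/R249C libraries, 102, 118, 124, 131 and 95.01 CPM in WT/R249C libraries, and 149, 122 and 98.5 CPM in WT/WT libraries. It varied least of the 10 from library to library, by 1.63 times between its lowest and highest, against 7.19 times for Pdcd11.

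Rrp12 had 33.1, 28.4 and 30.8 CPM in R249C/R249C libraries, 28.6, 44.0, 36.0, 20.9 and 10.3 CPM in WT/R249C libraries, and 57.96, 12.7 and 37.2 CPM in WT/WT libraries. Its highest library was WT/WT replicate 1, the library in which Pdcd11 was lowest, and its lowest was WT/R249C replicate 5, in which Pdcd11 was highest. Rrp12 had the lowest fitted differences of the 9, with log2 fold changes of -0.87 (95% interval -1.93 to 0.19) for R249C/R249C and -0.66 (-1.50 to 0.18) for WT/R249C against WT/WT, both with an adjusted p of 1.00 (edgeR). For Utp20 they were -0.21 (-1.26 to 0.85) and 0.00 (-0.84 to 0.85), for Heatr1 -0.18 (-1.67 to 1.32) and -0.33 (-1.52 to 0.86), and for Wdr43 -0.11 (-0.74 to 0.52) and -0.14 (-0.65 to 0.36). Of all genes, 0% passed in edgeR in either comparison.

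Counted together, 5 of the 9 genes other than Pdcd11 lay above 0 and 4 below it in R249C/R249C against WT/WT, with a median log2 fold change of 0.13. Of all 26980 genes tested, 49% lay above 0, with a median of -0.02. In WT/R249C against WT/WT the split was again 5 above and 4 below, with a median of 0.00, against 51.5% above 0 and a median of 0.02 for all genes. Utp20, at 0.00, was counted above, and lay below 0 with RLE scaling, which made the split 4 above and 5 below. By edgeR, 0 of the 9 passed the adjusted threshold in either comparison, as did 0% of all genes. At an unadjusted p under 0.05 there were also 0 of the 9, against 3.21% and 3.48% of all genes. DESeq2 called 0 of the 9 too, against 1.51% of all genes for R249C/R249C and 1.02% for WT/R249C against WT/WT. The libraries of the 9 overlapped in both comparisons, whereas 3.42% of all genes were higher and 4.68% lower without overlap in R249C/R249C against WT/WT, and 1.1% higher and 1.83% lower in WT/R249C against WT/WT.

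In R249C/R249C against WT/R249C, 2 of the 9 lay above 0 and 7 below it, with a median of -0.03, against 50.8% above 0 and a median of 0.01 for the 23695 genes tested. The fitted values were small, from -0.24 for Utp20 to 0.10 for Wdr43, and their sign depended on the scaling: with RLE scaling 6 of the 9 lay above 0, as did 54.2% of all genes. Without R249C/R249C replicate 2, 7 of the 9 lay above 0, and without R249C/R249C replicate 1 only 1 did; leaving out WT/R249C replicate 1, 2 or 3 gave 5, 3 and 4. By edgeR 0 of the 9 passed (0% of all genes), 0 had an unadjusted p under 0.05 (1.08% of all genes), and DESeq2 called 0 (0.131% of all genes). The libraries of all 9 overlapped, whereas 3.45% of all genes were higher and 5.41% lower without overlap.

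The count of 5 above and 4 below did not hold when WT/WT replicate 1 was left out. Without it, 3 of the 9 lay above 0 in R249C/R249C against WT/WT, with a median of -0.25, and 3 of the 9 in WT/R249C against WT/WT, with a median of -0.06. Within batch A, where that library is the only WT/WT one, 6 and 7 of the 9 lay above 0, with medians of 0.43 and 0.45, beside 56.7% and 60.97% of all genes. Within batch B, 3 of the 9 lay above 0 in WT/R249C against WT/WT, beside 47.8% of all genes.

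**Figure D2:**
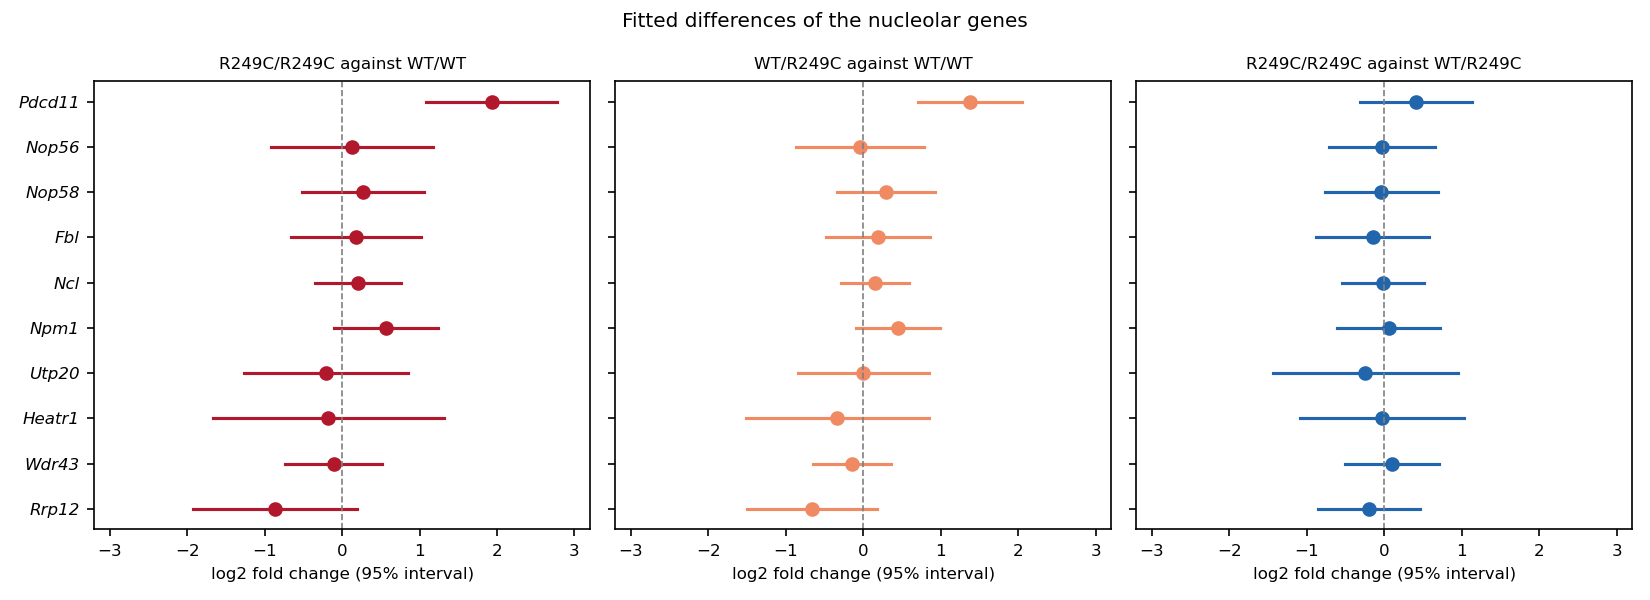
Fitted log2 fold changes of the 10 genes with 95% intervals in the 3 comparisons, from edgeR. Pdcd11, at 1.93 and 1.38, was chosen for its difference from WT/WT; the intervals of the other 9 genes include 0 in every panel.

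Per kilobase of the longest coding sequence, which allows a rough comparison between genes, the order by median over the 11 libraries was Npm1 at 272, Ncl at 239, Nop56 at 92.1, Nop58 at 76.6, Fbl at 67.9, Wdr43 at 58.2, Rrp12 at 7.93, Pdcd11 at 4.41, Heatr1 at 3.61 and Utp20 at 2.98 CPM per kilobase. The genes fell into a high and a low tier, as the lowest library of Wdr43, at 46.8, lay above the highest library of Rrp12, at 14.9 CPM per kilobase. The low tier also holds the longest coding sequences, from 3885 (Rrp12) to 8367 bases (Utp20), against at most 2121 bases (Ncl) in the high tier. Untranslated regions were left out, so level and length cannot be told apart in this split. Within the low tier, Pdcd11 ran from 0.89 to 6.39, Heatr1 from 0.97 to 4.49, Utp20 from 2.08 to 6.76 and Rrp12 from 2.64 to 14.9 CPM per kilobase, so these neighbours overlap. Among the more abundant genes, Npm1 (174 to 384) overlapped Ncl (177 to 293), and Nop56 (56.8 to 129.8), Nop58 (62.1 to 121), Fbl (43.9 to 99.3) and Wdr43 (46.8 to 76.1) overlapped each other.

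The annotation places small nucleolar RNA genes inside 4 of the members, 5 in Nop56, 4 in Nop58, 3 in Ncl and 3 in Wdr43, and none inside Pdcd11. Genes on the opposite strand overlap Pdcd11 (Calhm2), Nop56 (Idh3b), Heatr1 (Lgals8) and Wdr43. Whether counting used strand is not stated, so reads of such partners cannot be told apart. Calhm2, a gene of a family of membrane channels, had 6.04, 7.57 and 6.26 CPM in R249C/R249C libraries, 10.7, 15.1, 6.26, 8.02 and 4.70 CPM in WT/R249C libraries, and 2.09, 4.24 and 5.80 CPM in WT/WT libraries. It was lowest in WT/WT replicate 1, like Pdcd11, and its R249C/R249C libraries also lay above all WT/WT libraries. Its log2 fold changes against WT/WT were 0.67 (95% interval -1.21 to 2.55) for R249C/R249C and 1.12 (-0.39 to 2.64) for WT/R249C, with adjusted p of 1.00 (edgeR). Of all genes, 0% passed in edgeR in either comparison.

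Usmg5, a gene of a small ATP synthase subunit, starts next to Pdcd11 and runs the other way. It had 30.6, 36.3 and 51.7 CPM in R249C/R249C libraries, 43.6, 31.4, 32.3, 49.8 and 66.2 CPM in WT/R249C libraries, and 17.1, 55.9 and 29.7 CPM in WT/WT libraries. The genotypes overlapped, and the lowest library was again WT/WT replicate 1. Its log2 fold changes against WT/WT were 0.94 (95% interval 0.05 to 1.83) for R249C/R249C and 0.70 (-0.01 to 1.40) for WT/R249C, neither called (adjusted p = 1.00, edgeR), as was so for all genes tested. Its Pearson's r with Pdcd11 was 0.69 over 11 libraries and 0.32 without the 2 libraries farthest from the median of Pdcd11. The next genes on either side, Taf5 and Calhm1, reached at most 7.33 and 2.07 CPM in any library.

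Likeness between genes was measured as Pearson's r and Spearman's rho of log2(CPM + 1) over the 11 libraries, which share a scaling by library total and the genotype differences themselves. It is given as a description. With Pdcd11, r was 0.59 for Npm1 (rho 0.31), 0.43 for Ncl (rho -0.06), 0.37 for Fbl (rho 0.18), 0.26 for Nop56 (rho 0.06), 0.23 for Nop58 (rho 0.06), 0.05 for Utp20 (rho 0.12), 0.00 for Heatr1 (rho 0.01), -0.33 for Wdr43 (rho -0.04) and -0.54 for Rrp12 (rho -0.45). Over all other genes tested the median r with Pdcd11 was 0.02, and 5% and 95% of genes lay below -0.57 and 0.52, so Npm1 alone of the 9 lay above that upper bound.

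These values rested on few libraries. Without the 2 libraries farthest from the median of Pdcd11, WT/WT replicate 1 and WT/R249C replicate 1, r was 0.34 for Npm1, 0.32 for Nop58, 0.11 for Wdr43, 0.08 for Utp20, -0.11 for Fbl, -0.16 for Ncl, -0.28 for Nop56, -0.29 for Rrp12 and -0.45 for Heatr1. The sign thus turned for Ncl, Fbl, Nop56, Heatr1 and Wdr43. Within the 7 libraries of batch A, r was 0.73 for Nop56, 0.62 for Fbl, 0.60 for Ncl, 0.58 for Npm1, 0.48 for Heatr1, 0.18 for Nop58, 0.09 for Utp20, -0.33 for Wdr43 and -0.78 for Rrp12. Spearman's rho in batch A was 0.75 for Nop56 and for Fbl, 0.39 for Utp20, 0.36 for Heatr1 and 0.29 for Ncl. It was 0.29 for Wdr43, 0.18 for Npm1, -0.07 for Nop58 and -0.21 for Rrp12. The sign of rho thus differed from that of r for Nop58 and Wdr43. WT/WT replicate 1, at 4.97 CPM of Pdcd11, lay below the other batch A libraries, at 16.6 to 29.8 CPM. Batch B, with 4 libraries, was too small for a value. After genotype and batch means were removed, r was 0.78 for Nop56, 0.78 for Fbl and 0.73 for Heatr1, and -0.14 for Npm1. The members most alike to Pdcd11 within groups were thus not those most alike across them. The spread of r over all genes is given for the 11 libraries only, and for neither of these settings.

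The 5 genes with the highest r to Pdcd11 over the 11 libraries were taken among tested genes with a symbol, leaving out Gm numbers, Rik names and bare identifiers. They were Cpsf3 (r = 0.92), the endonuclease that cuts messenger RNA before polyadenylation, Wdr46 (0.91), a small-subunit processome protein homologous to yeast Utp7, Psmc2 (0.90), an ATPase of the proteasome, Rabggta (0.90), a subunit of the enzyme that prenylates Rab proteins, and Mcrs1 (0.88). Without the 2 farthest libraries these were 0.68, 0.60, 0.50, 0.56 and 0.41 in the same order. After genotype and batch means were removed they were 0.76, 0.85, 0.65, 0.81 and 0.60. Cpsf3 averaged 115 ± 16.1 CPM in R249C/R249C, 119 ± 20.9 CPM in WT/R249C and 84.4 ± 28.0 CPM in WT/WT libraries (SD, n = 3, 5 and 3). Wdr46 averaged 38.6 ± 7.03 CPM in R249C/R249C, 43.3 ± 9.00 CPM in WT/R249C and 28.4 ± 17.3 CPM in WT/WT libraries. Its lowest WT/WT library was at 9.34 CPM, against 31.8 CPM in the lowest R249C/R249C library.

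**Figure D3:**
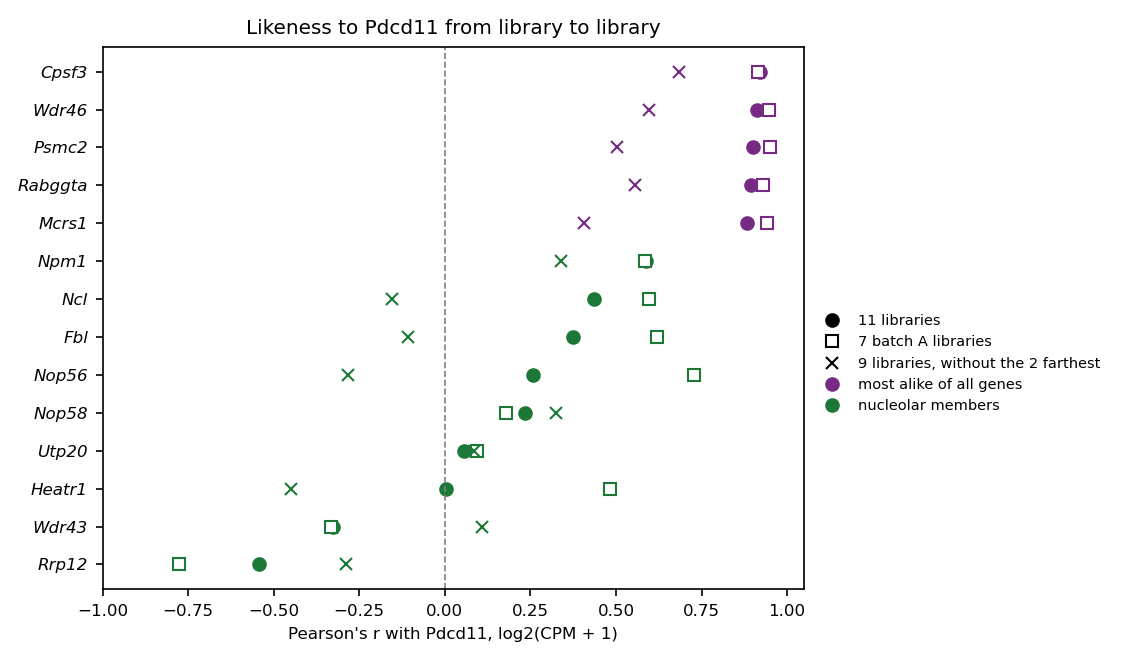
Pearson's r with Pdcd11 of log2(CPM + 1) for the 5 most alike genes (purple; Gm numbers, Rik names and bare identifiers left out) and the other 9 nucleolar genes (green). Filled circles are all 11 libraries, squares the 7 of batch A, and crosses the 9 left without the 2 farthest; Npm1 lies at 0.59, 0.58 and 0.34, and Nop56 at 0.26, 0.73 and -0.28.

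Among themselves the members fell into a few close pairs. Over the 36 pairs of the 9 genes other than Pdcd11, r ran from -0.51 (Nop58 with Utp20) to 0.91, with a median of 0.12, and over the 9 pairs with Pdcd11 from -0.54 to 0.59, with a median of 0.23. The closest pair was Nop56 with Fbl, the scaffold and the methyltransferase of the box C/D snoRNP, at r = 0.91 and rho = 0.92, with r = 0.97 within batch A and 0.88 without the 2 libraries farthest from the median of Nop56, WT/WT replicate 1 and WT/R249C replicate 4. Nop58, the third protein of that particle, stood apart, at r = 0.14 with Nop56 and 0.03 with Fbl. Heatr1 was next to Nop56 and Fbl, at r = 0.69 and 0.64.

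Ncl and Npm1 formed the other close pair, at r = 0.86 and rho = 0.80, with r = 0.93 within batch A and 0.63 without the 2 libraries farthest from the median of Ncl, WT/WT replicate 1 and WT/R249C replicate 1. These are also the 2 farthest for Pdcd11, and the values below leave out the same 2. Npm1 was also close to the summed CPM of 58 cytosolic ribosomal protein genes, at r = 0.89 and rho = 0.79 (0.90 within batch A, 0.78 without the 2). Nop56 and Fbl were not close to that sum, at r = 0.02 and 0.08 (-0.52 and -0.43 without the 2), and were closer to the summed processome genes, each at r = 0.73 (0.69 and 0.70 without the 2). Pdcd11 was close to neither sum without them, at r = 0.10 with the ribosomal proteins and 0.01 with the processome, against 0.52 and 0.24 over all 11.

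**Figure D4:**
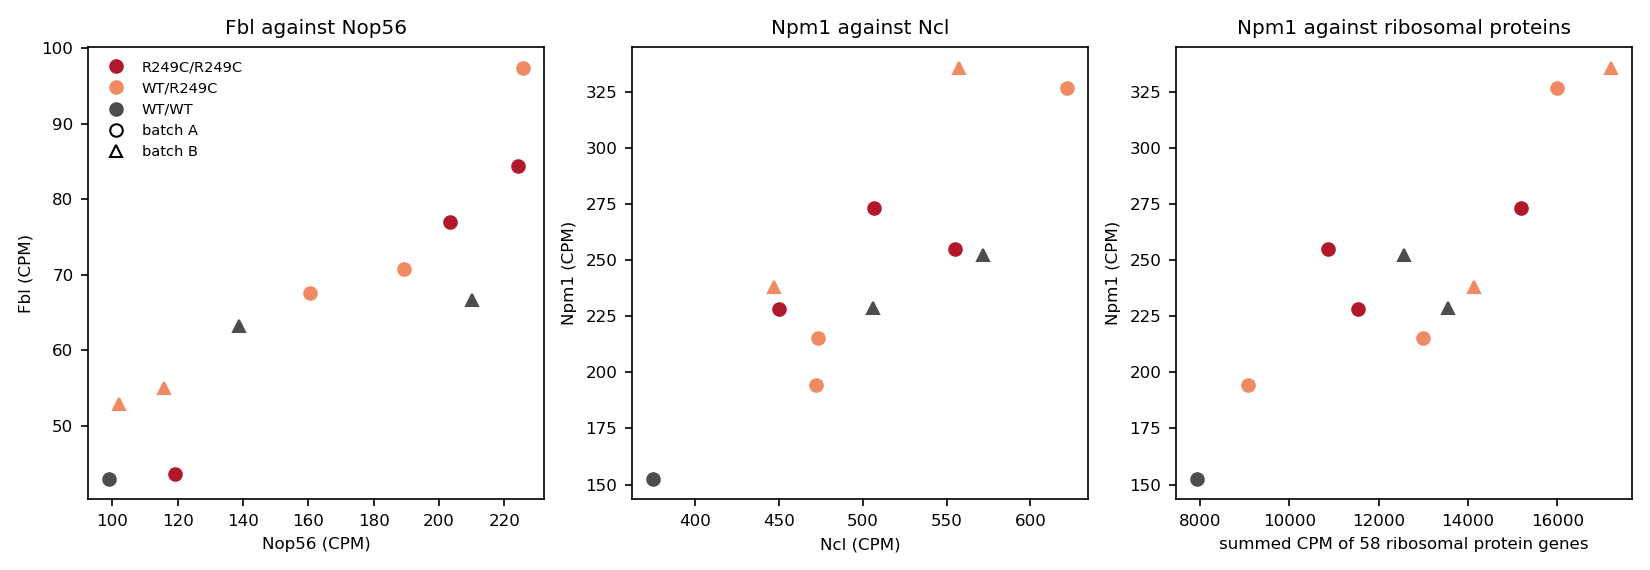
CPM of Fbl against Nop56 (left), of Npm1 against Ncl (middle) and of Npm1 against the summed CPM of 58 ribosomal protein genes (right); each point is a library, colored by genotype, with circles for batch A and triangles for batch B. Pearson's r of the log2 values is 0.91, 0.86 and 0.89, and libraries of every genotype lie along each trend.

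The wider pathway was read from gene lists. Of 36 other proteins of the small-subunit processome, 23 lay above 0 in R249C/R249C against WT/WT (median log2 fold change 0.08) and 28 in WT/R249C against WT/WT (median 0.16). Utp4 averaged 70.1 ± 9.30 CPM in R249C/R249C, 51.9 ± 9.10 CPM in WT/R249C and 71.2 ± 23.9 CPM in WT/WT libraries, and Utp15 averaged 36.9 ± 12.6, 35.4 ± 18.4 and 32.6 ± 15.7 CPM in the same groups (SD). Without WT/WT replicate 1 the counts were 17 of 36 (median -0.03) and 23 of 36 (median 0.08). Of all genes, 48.8% and 45.9% then lay above 0. Of 14 snoRNP core and assembly proteins, 7 lay above 0 in R249C/R249C (median -0.04) and 5 in WT/R249C (median -0.11) against WT/WT. With each library left out in turn these counts ran from 6 to 10 (medians -0.14 to 0.14), and from 5 to 7 (medians -0.12 to 0.00). Snu13, the fourth core protein of box C/D particles, averaged 63.4 ± 3.69 CPM in R249C/R249C, 64.7 ± 19.3 CPM in WT/R249C and 50.5 ± 7.97 CPM in WT/WT libraries. Dkc1, the pseudouridine synthase of H/ACA particles, averaged 65.6 ± 11.4, 64.7 ± 32.5 and 59.0 ± 6.88 CPM in the same groups.

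On the large-subunit side, 16 of 40 assembly factors lay above 0 in R249C/R249C (median -0.09) and 17 in WT/R249C (median -0.06) against WT/WT. Without WT/WT replicate 1 they were 24 (median 0.11) and 18 (median -0.05) of 40. Pes1 and Bop1, partners in a complex that matures large-subunit rRNA, averaged 110.3 ± 24.2 and 39.9 ± 14.0 CPM in R249C/R249C, 85.4 ± 23.5 and 47.3 ± 3.31 CPM in WT/R249C, and 112 ± 43.9 and 51.1 ± 27.6 CPM in WT/WT libraries. Of 14 genes of RNA polymerase I and its factors, 5 (median -0.24) and 6 (median -0.11) lay above 0 in R249C/R249C and WT/R249C against WT/WT. Without WT/WT replicate 1 there were 8 in each (medians 0.27 and 0.09), and with no batch term 8 (median 0.14) and 7 (median 0.01). Polr1a, the largest subunit, averaged 35.3 ± 3.34 CPM in R249C/R249C, 18.8 ± 14.5 CPM in WT/R249C and 41.6 ± 8.77 CPM in WT/WT libraries. Of 19 late small-subunit and exosome genes, 3 lay above 0 in R249C/R249C (median -0.21) and 9 in WT/R249C (median -0.02) against WT/WT. With each library left out in turn these counts ran from 2 to 7 (medians -0.27 to -0.14), the highest without R249C/R249C replicate 3, and from 6 to 10 (medians -0.10 to 0.02). In R249C/R249C against WT/R249C the medians of these 5 lists lay between -0.08 and 0.11. Without WT/R249C replicate 3 they were -0.04 for the processome, -0.24 for the snoRNP list and -0.06 for large-subunit assembly, against 0.01, 0.06 and 0.04 with all 6 libraries, and limma voom also gave medians below 0 for these 3 and for RNA polymerase I, at -0.05, -0.10, -0.06 and -0.06. No gene of any of them passed the adjusted threshold in edgeR, where 0% of all genes passed.

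Cytosolic ribosomal proteins mostly lay above 0 in both mutant genotypes. In R249C/R249C against WT/WT, 56 of 58 lay above 0, with a median log2 fold change of 0.52, and in WT/R249C against WT/WT 56 of 58, with a median of 0.49, against 49% and 51.5% of all genes. None passed the adjusted threshold in edgeR, where 0% of all genes passed. In the higher direction, 5 and 12 had an unadjusted p under 0.05 (edgeR), as did 1.7% and 1.91% of all genes. Their summed level was 10866, 11530.0 and 15194 CPM in R249C/R249C libraries, 15995, 12982, 9066, 17209 and 14126 CPM in WT/R249C libraries, and 7921, 13547 and 12559 CPM in WT/WT libraries. WT/WT replicate 1 was the lowest of the 11, and the other WT/WT libraries lay amid the mutant ones. Without it, 52 of 58 (median 0.37) and 53 of 58 (median 0.32) lay above 0, and with no batch term 49 of 58 (median 0.19) and 55 of 58 (median 0.34). Within batch B, 53 of 58 lay above 0 in WT/R249C against WT/WT, with a median of 0.32. In R249C/R249C against WT/R249C, 30 of 58 lay above 0, with a median of 0.01, and 41 of 58 under RLE scaling, with a median of 0.05. That split turned with single libraries and with the tool. It was 2 of 58 without WT/R249C replicate 3 (median -0.22), 6 without R249C/R249C replicate 3 (median -0.17), 53 without WT/R249C replicate 1 (median 0.24), and 2 by limma voom (median -0.22). These genes vary together, so their number is not a number of independent observations.

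**Figure D5:**
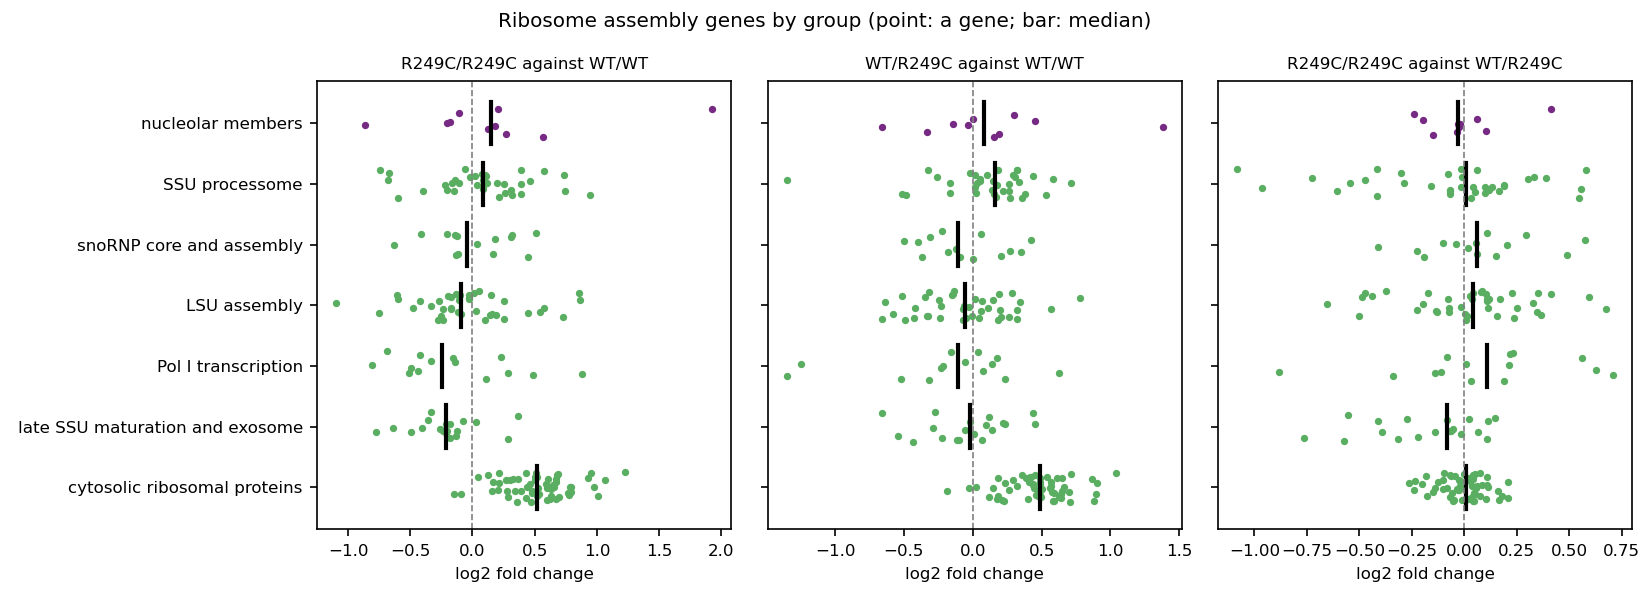
Fitted log2 fold changes of the genes of each list in the 3 comparisons; each point is a gene and the bar is the list's median, with the 10 nucleolar genes in purple. The ribosomal proteins center on 0.52 and 0.49 against WT/WT and on 0.01 between the mutant genotypes, and the only purple point beyond 1 in the first 2 panels is Pdcd11.

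In the Myc, p53, snoRNA host and cell cycle lists, edgeR and limma voom called 0 genes in the 3 comparisons, as they did among all genes. DESeq2 also called 0 in these lists, against 1.51%, 1.02% and 0.131% of all genes, so lists this short tell little. Of 10 genes of the Myc network, 4 lay above 0 in each mutant genotype against WT/WT (medians -0.26 in R249C/R249C and -0.27 in WT/R249C). Myc itself averaged 140.2 ± 27.3 CPM in R249C/R249C, 147 ± 22.8 CPM in WT/R249C and 119.5 ± 23.7 CPM in WT/WT libraries (SD). Of 12 targets of p53, which responds to failed ribosome assembly, 8 lay above 0 in R249C/R249C (median 0.11) and 4 in WT/R249C (median -0.13) against WT/WT. Cdkn1a averaged 80.4 ± 9.01 CPM in R249C/R249C, 73.0 ± 12.6 CPM in WT/R249C and 80.7 ± 15.5 CPM in WT/WT libraries. Of 8 noncoding snoRNA host genes, 6 (median 0.57) and 4 (median 0.20) lay above 0 in R249C/R249C and WT/R249C against WT/WT, with Gas5 at 162 ± 45.7 CPM in R249C/R249C, 185 ± 31.2 CPM in WT/R249C and 115 ± 13.7 CPM in WT/WT libraries. Of 16 cell cycle genes, 12 lay above 0 in both comparisons (medians 0.26 and 0.20). Against WT/WT, 49% of all genes lay above 0 in R249C/R249C and 51.5% in WT/R249C. The counts of these short lists were not redone with single libraries left out.

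Summed B cell markers were lower in both mutant genotypes than in WT/WT libraries, opposite in direction to Pdcd11. Summed over 10 B cell genes, the level ran from 275 to 553 CPM in R249C/R249C, from 118 to 518 CPM in WT/R249C and from 1447 to 3069 CPM in WT/WT libraries, and 9 of 10 lay below 0 in each mutant genotype against WT/WT. The immunoglobulin gene Igkc made up most of this sum, while the B cell surface gene Ms4a1 was at 0 counts in all R249C/R249C libraries and averaged 0.364 CPM in WT/R249C and 2.66 CPM in WT/WT libraries. Summed over 14 thymocyte genes, the level ran from 149 to 221 CPM in R249C/R249C, from 112 to 278 CPM in WT/R249C and from 226 to 346 CPM in WT/WT libraries, with 12 and 11 of the 13 tested below 0. The sum over 8 general epithelial genes ran from 5098 to 5815 CPM in R249C/R249C, from 4566 to 6676 CPM in WT/R249C and from 4134 to 5467 CPM in WT/WT libraries, and all 8 lay above 0 in both comparisons. The lowest epithelial sum, 4134 CPM, was that of WT/WT replicate 1. Against WT/WT, 49% of all genes lay above 0 in R249C/R249C and 51.5% in WT/R249C. These list counts were not redone with single libraries left out. None of these lymphoid and epithelial genes passed in edgeR, where 0% of all genes passed. For R249C/R249C against WT/WT, DESeq2 called 2 of 10 B cell genes (Igkc and Ms4a1) and 1 of 13 thymocyte genes (Ptcra). For WT/R249C against WT/WT it called 1 of 10 (Igkc) and 2 of 13 (Ptcra and Cd3g). Of all genes it called 1.51% and 1.02%. In each comparison 3 of the 10 B cell genes had no adjusted p from DESeq2. Over the 11 libraries, Pdcd11 had r = -0.59 with the B cell sum, -0.68 with the thymocyte sum and 0.61 with the epithelial sum. Without the 2 libraries farthest from the median of Pdcd11 these were -0.68, -0.52 and 0.34. Other list sums reached similar sizes over the 11, at -0.59 for RNA polymerase I and 0.54 each for snoRNA hosts and mature medullary epithelium. Without the same 2 libraries these were -0.35, 0.28 and 0.25. The fibroblast sum was then at -0.62 and the cortical epithelial sum at 0.57, against -0.21 and 0.50 over the 11. Pdcd11 was chosen for a genotype difference, so r with sums that differ by genotype partly reflects that choice. The part of these cells in the level of Pdcd11 was not tested.

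The remaining marker lists were less even. In R249C/R249C and WT/R249C against WT/WT, 7 and 1 of 10 fibroblast genes, 8 and 8 of 10 myeloid genes, 4 and 6 of 7 endothelial genes, 7 and 7 of 8 cortical epithelial genes, and 8 and 7 of 10 mature medullary genes lay above 0. Of all genes, 49% and 51.5% lay above 0 in the same order, and these list counts were not redone with single libraries left out. None of these genes passed the adjusted threshold in edgeR, where 0% of all genes passed.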

How the data were processed

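The authors deposited raw whole-number counts for each gene in each library. The submitters' processing notes name FastQC, HISAT2 and StringTie and the mouse build mm39; versions, annotation release, use of strand and whether counts are tallied reads are not given in the sources used here. The word trimmed stands in the column names of batch A only. Symbols came from GENCODE names of an older release (52073 of 56691 genes). CPM is the count scaled to a common column total, and log2(CPM + 1) was used for likeness.

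Fold changes were fitted in R 4.3.3 with the two-sided quasi-likelihood test of edgeR 4.0.16 (robust, TMM scaling, filterByExpr), adjusted by Benjamini-Hochberg over all genes tested at a threshold of 0.05. Both mutant genotypes were compared with WT/WT in 1 model of the 11 libraries that included batch, and R249C/R249C with WT/R249C in the 6 libraries of batch A. As further tools, voom from limma 3.58.1, with quality weights, and DESeq2 1.42.0 were applied. The fit was tested on simulated data. Alternatives were RLE scaling, no filter, no batch term, single batches, the contested libraries left out or moved, replicate blocks, and each library left out. Promoters were taken from RefSeq for GRCm38.p6, and coding lengths and near copies from the older GENCODE release.

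The members and the 18 gene lists were chosen with earlier results of these data known. The genes named are the 10 members, neighbours of Pdcd11 and the 5 genes with the highest r to it. Up to 2 of the first genes of a list are named too. In the B cell and thymocyte lists, genes that DESeq2 called were also named, so these were picked by their results. Gm numbers, Rik names and bare identifiers were left out when the 5 were taken. Of 17 genes listed for RNA polymerase I, 3 had no match. Reads carry no molecular identifiers, and the p-values do not cover variation between mice beyond that between libraries.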

Additional observations from a re-analysis of the deposited data

Results flagged for a closer look

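Utp20 stood at 56.6 CPM in WT/R249C replicate 3, against 17.4 to 24.9 CPM in the other 4 WT/R249C libraries. Its gap to the nearest library was 0.808 of the range of the group, above the critical value of 0.71 for 5 libraries in Dixon's test. The 5 WT/R249C libraries were tested in this way for each of the 10 genes, and such a test marks about 5% of groups by chance. WT/R249C replicate 3 had the smallest total, 60560348 counts. Without this library the log2 fold change of Utp20 was 0.07 in place of -0.21 for R249C/R249C against WT/WT, and 0.42 in place of -0.24 for R249C/R249C against WT/R249C.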

How the results depend on the processing

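Pdcd11 kept its sign under every alternative run: 1.04 to 2.43 over 21 in R249C/R249C and 0.96 to 2.01 over 22 in WT/R249C, relative to WT/WT, and 0.30 to 0.58 over 12 between R249C/R249C and WT/R249C. With each library left out in turn the ranges were 1.43 to 2.06, 0.97 to 1.54 and 0.30 to 0.55, the lowest of the first pair without WT/WT replicate 1. Pdcd11 was chosen for its higher level in these same libraries, so its kept sign against WT/WT is no independent check. Nop58, Npm1 and Rrp12 also kept their sign against WT/WT in both mutant genotypes. DESeq2 called 408, 276 and 31 genes in these 3 comparisons, in that order, where edgeR and limma voom called 0; edgeR had 865, 940 and 256 genes with an unadjusted p under 0.05.

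Of 210, 220 and 120 recomputed fold changes, 17, 29 and 36 turned sign, and the cause was not tested. For R249C/R249C against WT/WT, the log2 fold change was -0.045 for Nop56 with the contested libraries moved to R249C/R249C, and 0.048 for Utp20 and 0.070 for Wdr43 with limma voom. That of Heatr1 was 0.13 with no batch term, 0.56 within batch A and 0.56 without the contested libraries. For WT/R249C against WT/WT, Nop56 had 0.10 with no batch term, 0.16 with the contested libraries moved, 0.91 within batch A and 0.91 without the contested libraries, and Heatr1 had 0.59 in each of the last settings. Within batch B, Fbl had -0.23, Ncl -0.058, Utp20 -0.068 and Wdr43 0.074. Utp20 had -0.0061 with RLE scaling, -0.032 with no filter, -0.0063 with DESeq2 and -0.22 with limma voom, where Wdr43 had 0.0079.

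For R249C/R249C against WT/R249C, RLE scaling and DESeq2 each gave 0.0080 for Nop56, 0.015 for Nop58 and 0.027 for Ncl, and gave 0.000897 and 0.000991 for Heatr1. No filter gave 0.012 for Nop56, 0.017 for Ncl and 0.0035 for Heatr1. Limma voom gave 0.030 for Nop56, -0.058 for Npm1, 0.30 for Utp20 and 0.10 for Heatr1. Fitting the 11 libraries together, with a batch term, was chosen after seeing the data and gave 0.16 for Nop56, 0.052 for Ncl and 0.15 for Heatr1.

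With each library left out in turn, R249C/R249C against WT/WT ranged over -0.33 to 0.44 for Fbl, -0.90 to 0.21 for Heatr1, -0.024 to 0.31 for Ncl, -0.61 to 0.40 for Nop56, -0.31 to 0.066 for Utp20 and -0.37 to 0.23 for Wdr43. WT/R249C against WT/WT ranged over -0.22 to 0.32 for Fbl, -0.91 to 0.14 for Heatr1, -0.053 to 0.29 for Ncl, -0.63 to 0.25 for Nop56, -0.27 to 0.10 for Utp20 and -0.32 to 0.078 for Wdr43. R249C/R249C against WT/R249C ranged over -0.30 to 0.11 for Fbl, -0.27 to 0.24 for Heatr1, -0.14 to 0.17 for Ncl, -0.17 to 0.22 for Nop56, -0.27 to 0.24 for Nop58, -0.13 to 0.37 for Npm1, -0.31 to 0.0014 for Rrp12, -0.50 to 0.42 for Utp20 and -0.15 to 0.25 for Wdr43.

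The libraries share a replicate number in the titles and another number in the library names, which runs within batches. Deviations from the group means correlated at -0.15 to 0.20 between libraries of the same replicate number. Between those of the same library name number they correlated at -0.067 to 0.20. Deviations from group and batch means correlated at -0.14 to 0.17 and at -0.41 to 0.16 in the same order. Neither number was treated as pairing. A replicate block gave 2.43 and 2.01 for Pdcd11 in R249C/R249C and WT/R249C against WT/WT, 0.38 and 0.39 for Heatr1, and, in WT/R249C, 1.07 for Nop56 and -0.41 for Utp20. Nop58 had 0.011 in R249C/R249C against WT/R249C. The block called 0 genes in all 3 comparisons. A replicate block by library name number, chosen after seeing the data, gave 1.90 in R249C/R249C and 1.36 in WT/R249C against WT/WT for Pdcd11, gave 0.15 for Utp20 in R249C/R249C, and called 0 genes.

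With 3 libraries in 2 of the genotypes and a lone WT/WT library in batch A, batch and genotype can be told apart only in part. The counts behind each member are large, so the spread between libraries sets the intervals. The contested labels touch every WT/R249C value of batch B. Counting error is covered by these fits, and technical differences between batches, such as trimming, were not tested.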
